A study of Mus musculus with 12 samples.

Results

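The 35 genes described here encode the enzymes of glycolysis and of the pentose phosphate pathway, with the enzymes that make or control the step from pyruvate into mitochondria. They were chosen by symbol from textbook membership, with earlier results of these data known. All 35 were among the 12339 genes listed in the count table. RNA-seq libraries came from peritoneal macrophages: WT (wild-type) and meKO mice were kept on a high-fat diet (HFD) or chow, and each of the 4 groups has 3 libraries. The title of the series names myeloid protein kinase C epsilon, so meKO was read as a knockout of its gene, Prkce, in myeloid cells; the labels name neither the recombinase nor the allele. All 4 groups carried AAV8PCSK9, a viral vector given at 8 weeks of age to remove the LDL receptor from hepatocytes, so the chow groups are not untreated mice. The WT chow and meKO chow groups stayed on chow, and the WT HFD and meKO HFD groups ate a Western-type diet for 4 weeks. Thioglycolate then recruited macrophages to the peritoneum, and these were washed out. The labels describe 8 animals of each genotype, 4 of them on HFD, and titles carry a different number for each library, but nothing says outright that libraries came from separate animals; p-values measure the spread between these libraries.

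Glycolysis splits glucose into pyruvate in the cytosol and yields ATP and NADH, and lactate dehydrogenase turns pyruvate into lactate when it does not enter mitochondria. The oxidative arm of the pentose phosphate pathway makes NADPH, which macrophages use for the oxidative burst and for antioxidant defence, and the non-oxidative arm interconverts sugar phosphates with glycolysis. Macrophages activated by inflammatory stimuli are known for high glycolytic flux, and many of these genes are textbook targets of hypoxia-inducible factor (HIF). The data are RNA levels and hold no measure of flux. In bulk RNA, fewer cells of a type and less RNA per cell cannot be told apart.

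Totals ranged from 25844958 to 37282772 counts per library. Prkce lay between 2.01 and 4.44 CPM (counts scaled by library depth) in the WT libraries and between 0.950 and 1.78 CPM in the meKO libraries. All meKO libraries were thus below all WT libraries. The log2 fold change of Prkce in meKO over WT was -1.47 ± 0.31 (SE) on chow and -0.80 ± 0.31 on HFD. Neither reached an adjusted p under 0.05 in the edgeR test used below (edgeR adjusted p = 0.0794 and 0.989). WT chow libraries 1 and 2 stood apart from the other libraries in gene length: the rank correlation of annotated exon length with how far each gene deviated in that library was 0.62 and 0.67 in these libraries, and between -0.45 and 0.13 in the other 10. The meKO chow library 2 had 69.3 CPM of Lyz2, the macrophage lysozyme gene. The other meKO libraries had 16293 to 21309.5 CPM and the WT libraries 30482 to 53835 CPM, so all meKO libraries were below all WT libraries. Summed over 9 further macrophage markers the range was 5704 to 6943 CPM in all libraries.

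The enzymes together took a small and varying share of all counts. The share was 0.541% ± 0.0351 (SD, n = 3) in WT chow, 0.662% ± 0.0208 in WT HFD, 0.651% ± 0.0789 in meKO chow and 0.696% ± 0.0489 in meKO HFD. Levels per length, as CPM per kilobase of annotated exon, were led by Ldha, which makes lactate, at 558 ± 122 (mean ± SD over 12 libraries), then Aldoa, the main macrophage aldolase here, at 449 ± 79.8, Tpi1, triose phosphate isomerase, at 360.1 ± 84.0 and Pkm, pyruvate kinase, at 343 ± 62.0. Each of these 4 genes overlapped the next across libraries. Taldo1 and Pgam1 followed at 208 ± 37.4 and 162 ± 27.8, and Pgd and Hk3 at 122 ± 18.6 and 117 ± 17.9. The lowest levels were those of Pfkfb2, Pfkm and Aldoc, at 2.02 ± 0.420, 1.88 ± 0.418 and 0.859 ± 0.278 CPM per kilobase.

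**Figure D1:**
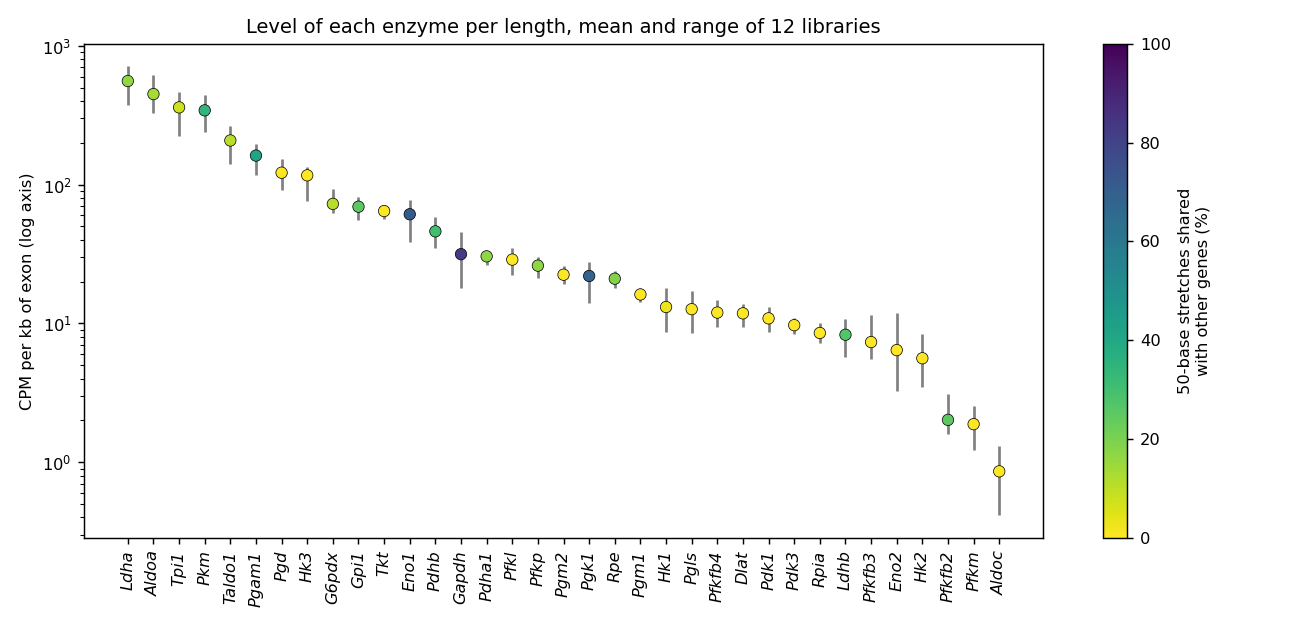
Level of each of the 35 enzyme genes in CPM per kilobase of annotated exon, on a log axis. Points are means over 12 libraries, vertical lines run from the lowest to the highest library, and colour gives the percent of 50-base stretches shared with other genes. Ldha, Aldoa, Tpi1 and Pkm lie at the top with means of 558, 449, 360.1 and 343, and Aldoc lies lowest at 0.859.

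Some of these levels are set partly by how reads from near-identical copies were assigned, which the sources used here do not state. Of all 50-base stretches in the longest annotated Gapdh transcript, 82.5% also occurred in transcripts of other genes, and the share was 72.2% for Eno1, 68.0% for Pgk1, 41.5% for Pgam1 and 34.4% for Pkm. It was 16.6% for Ldha and 7.5% for Tpi1. It was 0% for 14 members, among them Hk2, Hk3, Pfkm, Pgd, Rpia and Tkt. The low per-length level of Gapdh, 31.5 ± 8.42, is therefore uncertain.

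The promoters of several of these genes are classic sites of HIF and of E-box factors. Sequences are given for the genes with the smallest p-values for diet in WT and for Hk2, lower on HFD with overlapping libraries. Each is the 250 bases before the RefSeq start on GRCm38.p6, read on the gene's strand, with every ACGTG or GCGTG on either strand in capitals (as CACGT or CACGC where it lies on the opposite strand). The windows are chr7:46845554-46845803 on the plus strand for Ldha, chrX:106186850-106187099 on the plus strand for Pgk1, chr6:125165774-125166023 on the minus strand for Gapdh, chr6:124814159-124814408 on the minus strand for Tpi1 and chr6:82774455-82774704 on the minus strand for Hk2.
Ldha: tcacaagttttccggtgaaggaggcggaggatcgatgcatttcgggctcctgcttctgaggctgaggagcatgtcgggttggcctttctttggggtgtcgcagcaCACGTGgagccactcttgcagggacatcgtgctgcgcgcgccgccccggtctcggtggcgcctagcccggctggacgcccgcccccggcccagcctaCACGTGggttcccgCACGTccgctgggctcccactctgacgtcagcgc
Pgk1: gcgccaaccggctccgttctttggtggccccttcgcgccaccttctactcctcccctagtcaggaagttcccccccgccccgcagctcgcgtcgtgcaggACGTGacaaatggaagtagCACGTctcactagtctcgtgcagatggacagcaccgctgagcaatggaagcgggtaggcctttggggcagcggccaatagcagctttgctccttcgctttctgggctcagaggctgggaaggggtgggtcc
Gapdh: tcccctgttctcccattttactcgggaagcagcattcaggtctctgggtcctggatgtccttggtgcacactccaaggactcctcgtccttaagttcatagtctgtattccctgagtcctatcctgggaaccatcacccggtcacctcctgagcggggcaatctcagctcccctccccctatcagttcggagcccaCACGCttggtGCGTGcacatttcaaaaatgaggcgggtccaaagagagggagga
Tpi1: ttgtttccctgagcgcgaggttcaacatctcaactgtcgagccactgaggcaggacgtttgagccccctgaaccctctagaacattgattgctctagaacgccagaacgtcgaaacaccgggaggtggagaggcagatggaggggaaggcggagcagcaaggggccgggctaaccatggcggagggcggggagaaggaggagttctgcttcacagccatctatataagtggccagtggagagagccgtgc
Hk2: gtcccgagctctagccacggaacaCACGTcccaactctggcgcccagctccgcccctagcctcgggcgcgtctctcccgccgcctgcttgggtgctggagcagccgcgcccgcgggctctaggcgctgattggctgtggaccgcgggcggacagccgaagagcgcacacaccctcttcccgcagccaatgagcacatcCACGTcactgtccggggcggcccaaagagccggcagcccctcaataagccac
In the window given, Ldha had 3 places with the motif, of which 2 were the palindrome CACGTG, where ACGTG lies on both strands. A further listed Ldha promoter, chr7:46846832-46847081 on the plus strand, had 0 ACGTG and 1 GCGTG. Pgk1 and Hk2 had 2 places each with ACGTG, Gapdh had 2 with GCGTG, and Tpi1 had 0. Over the first listed promoter of each gene, ACGTG occurred in 12 of the 35 members (34.3%), in 22.2% of 9553 genes of the count table with a promoter, and in 16.6% of all 27025 promoters. GCGTG occurred in 19 of 35 (54.3%), against 45.5% and 28.2%, and CACGTG in 3 of 35 (8.6%), against 8.6% and 6.0%. Whether these motifs have a part in the diet response was not tested.

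In WT macrophages, Tpi1, 5 of the 6 genes of the lower steps of glycolysis (Gapdh, Pgk1, Pgam1, Eno1 and Pkm), and Ldha were higher on HFD, together with Pfkp, Pdhb, Taldo1 and Pgd; Hk2, Pfkm and Rpia were lower. Of the 35 genes, 14 passed edgeR's quasi-likelihood test at a Benjamini-Hochberg adjusted p under 0.05 over all genes (40%), 11 higher and 3 lower on HFD; of all 12339 genes, 21.3% passed (9.5% higher, 11.8% lower). The median log2 fold change was 0.17 over the members and -0.03 over all genes. The 3 libraries of each group did not overlap for 21 members (60%), 14 higher and 7 lower on HFD, against 39.3% of all genes (19.4% higher, 19.9% lower).

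Ldha, which reduces pyruvate to lactate, measured 711, 732 and 752 CPM in WT chow and 1112, 1195 and 1211 CPM in WT HFD. All 3 HFD libraries were above all chow libraries, and the log2 fold change was 0.68 ± 0.10 (SE; 1.60-fold; edgeR adjusted p = 0.00541). Its sister gene Ldhb, whose subunit favours the reverse reaction, was far lower at 9.48 ± 2.03 and 11.5 ± 0.943 CPM and did not pass (log2 0.28 ± 0.18, edgeR adjusted p = 0.244).

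Among the genes of the 3-carbon steps, Tpi1, which interconverts the triose phosphates, measured 396, 444 and 446 CPM in WT chow and 693, 713 and 759.5 CPM in WT HFD. The groups were far apart, with a log2 fold change of 0.75 ± 0.13 (edgeR adjusted p = 0.00647). Gapdh, the dehydrogenase that follows, measured 29.5, 27.0 and 34.5 CPM against 56.0, 59.5 and 50.8 CPM. This was the largest rise among the members, 0.87 ± 0.14 (1.83-fold; edgeR adjusted p = 0.00644). Pgk1, which makes the first ATP of glycolysis, measured 27.5, 25.5 and 29.0 CPM against 42.2, 49.4 and 45.2 CPM, a log2 fold change of 0.74 ± 0.14 (edgeR adjusted p = 0.0111). Pgam1, phosphoglycerate mutase, measured 216, 236 and 207 CPM against 307, 327 and 300.4 CPM, a log2 fold change of 0.51 ± 0.11 (edgeR adjusted p = 0.0132). For both genes every HFD library was above every chow library. Eno1 measured 147, 99.0 and 100.4 CPM against 136, 166 and 189 CPM. Eno1 and Pkm, which make phosphoenolpyruvate and pyruvate, rose by 0.50 ± 0.17 and 0.44 ± 0.15, with edgeR adjusted p-values of 0.0469 and 0.0476 close to the threshold; the Eno1 groups overlapped.

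**Figure D2:**
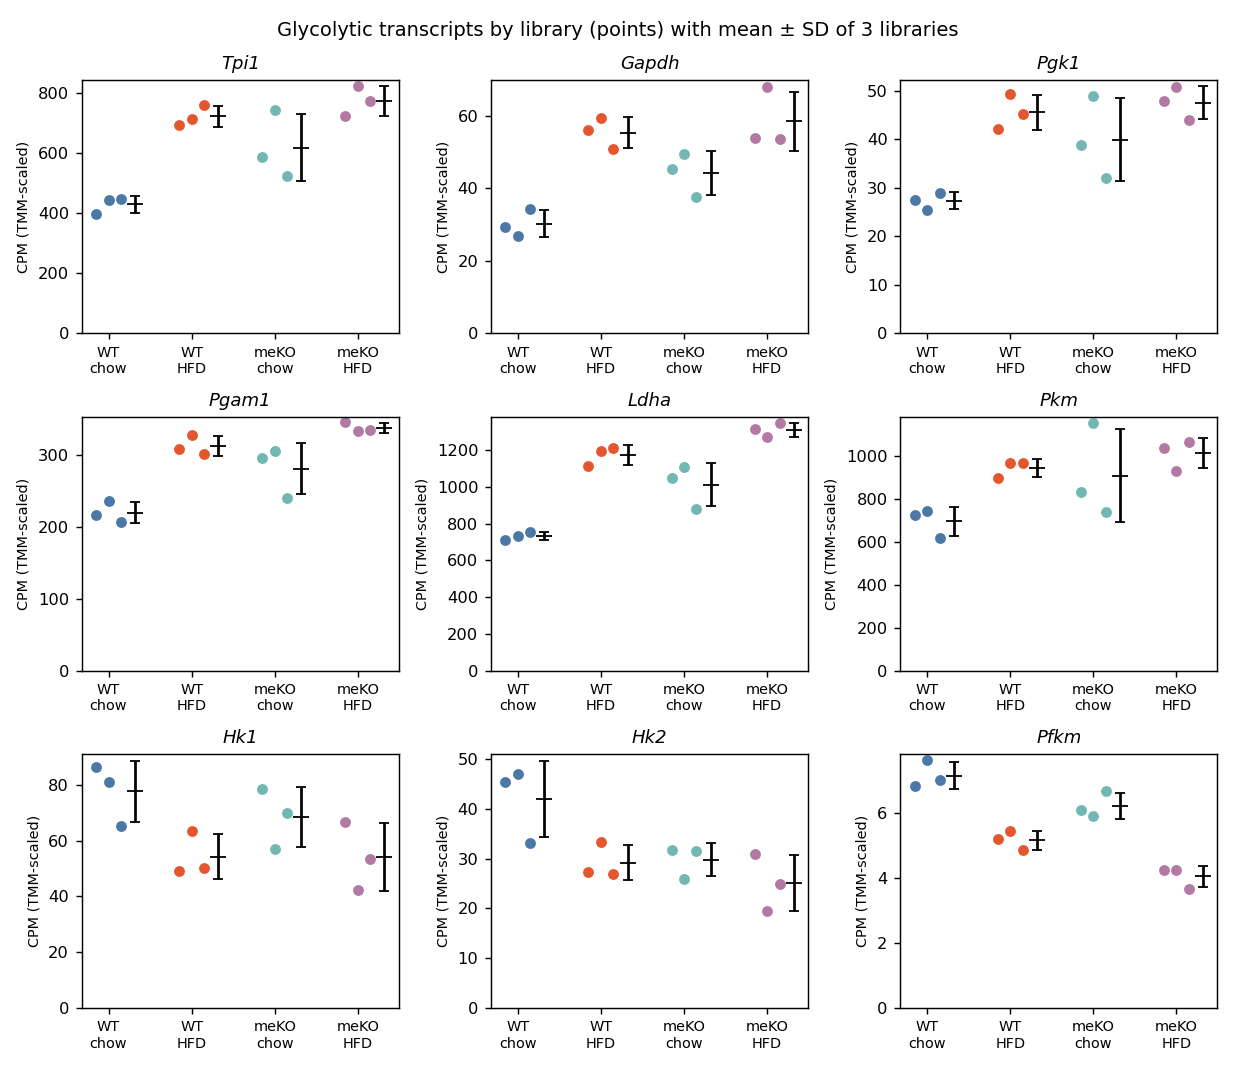
CPM in each of the 12 libraries for Tpi1, Gapdh, Pgk1, Pgam1, Ldha, Pkm, Hk1, Hk2 and Pfkm, by group, with the mean ± SD of 3 libraries beside the points. Ldha ran from 711 to 752 CPM in WT chow and from 1112 to 1211 CPM in WT HFD, and meKO chow had 881 to 1106 CPM.

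Where the deposited table also lists a copy of a gene, the copies were summed. Gapdh with its pseudogene Gapdh-ps15, which held 2.71 counts for each count of Gapdh on average, summed to 106 ± 8.61 CPM (SD, n = 3) in WT chow and 203 ± 9.29 CPM in WT HFD, 1.91-fold higher. Gapdh-ps15 itself rose with HFD in WT by 0.96 (edgeR adjusted p = 0.00308). It was also higher in meKO chow than in WT chow (0.80, edgeR adjusted p = 0.0484). For diet in meKO it did not pass (0.24, edgeR adjusted p = 0.375). Gapdh with Gapdh-ps15 summed to 176 ± 26.9 CPM in meKO chow and 215 ± 32.4 CPM in meKO HFD, 1.22-fold higher. Eno1 with Eno1b, an intronless copy, summed to 234 ± 4.27 CPM in WT chow and 332 ± 29.0 CPM in WT HFD, 1.42-fold higher. The WT chow libraries then spread by less than for Eno1 alone (116 ± 27.6 CPM). In meKO the sum was 300 ± 42.3 CPM on chow and 335 ± 53.5 CPM on HFD, 1.12-fold higher. Outside WT chow the sum spread by more than Eno1 alone, which had an SD of 26.7 CPM in WT HFD. The SD of Eno1 alone was 21.9 CPM in meKO chow and 14.0 CPM in meKO HFD. Aldoa with Aldoart1 summed to 682 ± 61.5 and 869.7 ± 72.7 CPM, 1.28-fold higher; Aldoa alone did not pass (0.35 ± 0.16, edgeR adjusted p = 0.118). Gapdh-ps15 and Aldoart1 were chosen after their values were seen.

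Hexokinases, which trap glucose as glucose phosphate, differed by isoform. Hk2, the inducible mitochondrial isoform, measured 45.5, 47.1 and 33.2 CPM in WT chow and 27.4, 33.3 and 26.9 CPM in WT HFD. The lowest chow library lay just under the highest HFD library, and the log2 fold change was -0.52 ± 0.17 (edgeR adjusted p = 0.0480). Hk1, the housekeeping isoform, measured 86.7, 81.2 and 65.3 CPM against 49.3, 63.5 and 50.2 CPM; its groups did not overlap, but its log2 fold change of -0.52 ± 0.18 did not pass in WT alone (edgeR adjusted p = 0.0514). Hk3, the myeloid isoform and by far the most abundant, was at 324 ± 63.8 and 389 ± 47.6 CPM and did not pass (0.27 ± 0.14, edgeR adjusted p = 0.178). Per length, Hk3 made up 80.3% ± 1.28 (SD, n = 3) of hexokinase RNA in WT chow and 87.6% ± 1.27 in WT HFD, and Hk2 6.23% ± 0.154 and 3.94% ± 0.335. These shares are descriptions with no test.

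Phosphofructokinase, the committing step of glycolysis, also moved by isoform. Pfkm, the muscle type, measured 6.82, 7.61 and 7.01 CPM in WT chow and 5.18, 5.44 and 4.84 CPM in WT HFD, a log2 fold change of -0.47 ± 0.14 (edgeR adjusted p = 0.0316). Pfkp, the platelet type, measured 94.1, 98.0 and 91.0 CPM against 114, 126 and 127 CPM, a log2 fold change of 0.37 ± 0.10 (edgeR adjusted p = 0.0241). Neither gene's groups overlapped, and they went in opposite directions. Pfkl, the liver type, did not pass (0.21 ± 0.14, edgeR adjusted p = 0.289). Per length, Pfkl made up 50.8% ± 1.69 and 49.2% ± 2.22 of phosphofructokinase RNA in WT chow and WT HFD, Pfkp 44.3% ± 1.60 and 47.9% ± 2.31, and Pfkm 4.81% ± 0.179 and 2.90% ± 0.151. Of the bifunctional enzymes that set the level of the phosphofructokinase activator, Pfkfb2, Pfkfb3 and Pfkfb4, 0 of 3 passed in edgeR, 2 having an unadjusted p under 0.05, with log2 fold changes of -0.35, -0.48 and -0.08. Gpi1 and Aldoc, glucose phosphate isomerase and the brain-type aldolase, had -0.09 and -0.89, and Aldoc just missed the threshold (edgeR adjusted p = 0.0528).

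The pentose phosphate genes did not move as 1 block. In the oxidative arm 1 of 3 genes passed: Pgd, which yields NADPH, rose from 232, 214 and 202 CPM to 253, 264 and 302 CPM, without overlap (0.34 ± 0.11, edgeR adjusted p = 0.0454), and G6pdx, the entry enzyme, had a log2 fold change of 0.15 ± 0.11 and Pgls one of 0.43 ± 0.18, neither past the threshold. In the non-oxidative arm 2 of 4 passed, in opposite directions. Taldo1, transaldolase, measured 191, 209 and 243 CPM against 282, 285 and 331 CPM (0.48 ± 0.13, edgeR adjusted p = 0.0263). Rpia, ribose phosphate isomerase, measured 18.2, 16.6 and 18.4 CPM against 13.3, 14.4 and 14.5 CPM (-0.34 ± 0.11, edgeR adjusted p = 0.0437). The groups of both genes did not overlap. Rpe, Tkt and Pgm1 and Pgm2, of the phosphoglucomutase family, had log2 fold changes between -0.19 and 0.18, and 0 of these 4 passed. Pgm1 and Pgm2 are Entrez genes 72157 and 66681, whose symbols were once exchanged.

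At the entry to mitochondria, Pdhb, a subunit of pyruvate dehydrogenase, measured 53.1, 53.5 and 59.1 CPM in WT chow and 77.2, 71.7 and 83.7 CPM in WT HFD, without overlap (0.49 ± 0.12, edgeR adjusted p = 0.0184). The other subunits did not pass: Pdha1 had a log2 fold change of 0.15 ± 0.10 and Dlat one of -0.25 ± 0.11. The inhibitory kinases Pdk1 and Pdk3 had 0.17 ± 0.16 and -0.06 ± 0.12 and did not pass.

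Fold changes of the members went with transcript length, as they did across all genes. Across genes, the rank correlation of the WT diet fold change with exon length was -0.56 over 11532 genes and -0.67 over the 35 members; genes share libraries, so this is a description. Members were short, with a median exon length of 2724 bases against 3270 over all genes. Of 11 members of 2000 bases or less, 7 were called higher and 1 lower, and of 7 members over 4000 bases, 1 was called higher and 1 lower. Calls over all genes of the same lengths were not counted, so these numbers are not a result about the enzymes. With length and GC content of each gene entered as offsets per library, 10 members passed, 8 of them among the 14. Of all genes 12.5% then passed. Ldha (0.52), Tpi1 (0.59), Gapdh (0.70), Pgk1 (0.53), Eno1 (0.59), Pkm (0.54), Pfkp (0.56) and Rpia (-0.51) passed in both. Hk2 (-0.17), Pfkm (-0.34), Pgam1 (0.33), Pdhb (0.15), Pgd (0.31) and Taldo1 (0.22) no longer passed, and Hk3 (0.49 ± 0.13, edgeR adjusted p = 0.0296) and Pfkl (0.48 ± 0.10, edgeR adjusted p = 0.0144) then did.

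Without WT chow libraries 1 and 2, which left 1 WT chow library assumed to vary like the others, 0 of 35 members and 15 of all genes passed in WT. The log2 fold changes were then 0.64 for Ldha (edgeR adjusted p = 0.223), 0.70 for Tpi1 (0.249), 0.69 for Gapdh (0.277), 0.65 for Pgk1 and -0.44 for Pfkm, and they were nearer 0 for Hk1 (-0.26) and Hk2 (-0.18). How much of each fold change went with the length trend was not tested further. Leaving out any 1 library, or changing the tool, scaling or filter, kept Ldha, Gapdh and Tpi1 past the threshold in all 22 planned settings; Hk2 passed in 9, Rpia in 10, Eno1 in 11, Pgd in 12 and Pkm in 13. Leaving out 1 WT library gave 3 members (without WT HFD library 3) to 16 (without WT chow library 3); it gave 4 without WT chow library 1, and 5 without WT chow library 2 or WT HFD library 1, and 8 without WT HFD library 2.

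**Figure D3:**
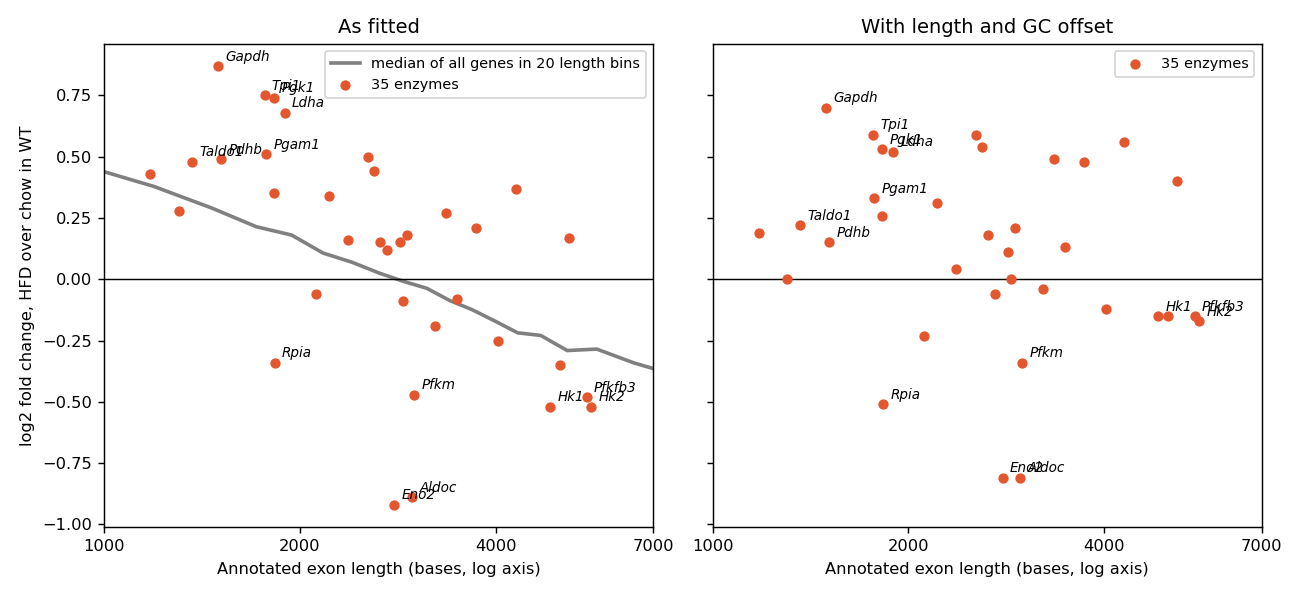
Log2 fold change of HFD over chow in WT against annotated exon length (log axis) for the 35 enzyme genes (points), as fitted (left) and with length and GC offsets (right). The grey line on the left is the median of all genes in 20 bins of length. The members' rank correlation with length was -0.67 before the offsets, and Ldha, Gapdh, Tpi1 and Pgk1 stay between 0.52 and 0.70 after them.

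Genes of connected pathways, from lists chosen with earlier results of these data known, were read off the same test. Of 12 genes of glucose and lactate transport, 3 rose with HFD in WT and 0 fell, beside 21.3% of all genes called: Bsg, the chaperone of the lactate transporters (0.51, edgeR adjusted p = 0.0179), Slc2a6, a lysosomal hexose transporter (0.79, 0.0281), and Slc16a3, the lactate exporter (0.72, 0.0393). Slc16a3 measured 50.1, 56.4 and 39.6 CPM in WT chow and 78.6, 88.5 and 73.0 CPM in WT HFD, without overlap. Slc2a1, the main glucose importer, had a log2 fold change of -0.14 ± 0.19 and did not pass (edgeR adjusted p = 0.607). Hif1a was level, at 156 ± 18.1 and 157 ± 8.12 CPM (0.01 ± 0.11, edgeR adjusted p = 0.967). Of 10 HIF subunits and regulators 3 fell, Epas1 (-1.0), Cited2 (-0.79) and Arnt (-0.68), and 0 rose (11.8% of all genes were called lower). Of 20 HIF targets outside glucose use, 6 rose and 0 fell (9.5% of all genes were called higher), among them Mif (0.89) and Fam162a (0.74).

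For diet in WT 21.3% of all genes were called, 9.5% higher and 11.8% lower. Around the pathway, 1 of 13 genes of glycogen, gluconeogenesis and glycerol phosphate rose, Ugp2, which makes UDP-glucose (0.82 ± 0.12, edgeR adjusted p = 0.00473), and 0 fell. Of 9 further genes of pyruvate entry, Mpc2, a mitochondrial pyruvate carrier subunit, rose (0.61), and Pdp2 and Pdpr, of the phosphatase that activates pyruvate dehydrogenase, fell (-0.66 and -0.78). Of 21 citric acid cycle genes 4 rose and 2 fell (21.3% of all genes were called), with Sucla2 (0.41) among the first and Ogdh (-0.96) and Acly (-0.64) the second. Of 7 further pentose phosphate genes and 7 further glycolysis genes 0 passed in edgeR in WT, with 2 and 1 at an unadjusted p under 0.05. Slc16a3 had a larger fold change with length and GC offsets (1.06, edgeR adjusted p = 0.0105), and Slc2a6, Bsg, Epas1, Cited2, Arnt, Mif, Ugp2, Ogdh and Acly also passed. With the same offsets Fam162a (0.21, edgeR adjusted p = 0.140), Mpc2 (0.25, 0.0522), Pdp2 (-0.38, 0.0855), Pdpr (-0.52, 0.111) and Sucla2 (0.20, 0.0638) no longer passed, nor did Bnip3 (0.28) and Ankrd37 (0.26), 2 more of the 6 HIF targets.

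In meKO macrophages, 0 of 35 members passed for diet in edgeR (0.105% of all genes), with 5 at an unadjusted p under 0.05. DESeq2 called 2, Ldha and Pfkm, and 1.84% of all genes. Pfkm measured 6.08, 5.89 and 6.67 CPM in meKO chow and 4.23, 4.23 and 3.65 CPM in meKO HFD, with no overlap (-0.62 ± 0.14, edgeR adjusted p = 0.112). Ldha measured 1048, 1106 and 881 CPM against 1315, 1269.7 and 1346 CPM, also with no overlap (0.37 ± 0.10, edgeR adjusted p = 0.171). Gapdh measured 45.5, 49.6 and 37.7 CPM against 54.0, 67.9 and 53.8 CPM (0.40 ± 0.14, edgeR adjusted p = 0.238). Tpi1 measured 588, 742 and 523 CPM in meKO chow and 724, 822 and 771 CPM in meKO HFD, overlapping in 1 library (0.32, edgeR adjusted p = 0.269). Pgk1 measured 38.8, 48.9 and 31.97 CPM against 47.9, 50.8 and 44.0 CPM, and Pgam1 296, 306 and 239.7 CPM against 346, 333 and 335 CPM. Of these, Pgam1 did not overlap and Pgk1 did.

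The remaining genes given per library in WT overlapped between diets in meKO. Hk2 had 31.8, 26.0 and 31.6 CPM on chow and 30.8, 19.5 and 24.8 CPM on HFD, and Pfkp 119.9, 109.7 and 101 CPM and 129.9, 116 and 119 CPM. Pdhb, the pyruvate dehydrogenase subunit, had 65.7, 74.0 and 66.4 CPM and 67.8, 88.8 and 75.3 CPM. The pentose phosphate genes also overlapped: Taldo1 had 276, 358 and 281 CPM on chow and 281, 334 and 333 CPM on HFD. Rpia had 16.0, 15.01 and 15.2 CPM and 15.1, 14.2 and 16.5 CPM, Pgd 309, 339.6 and 284 CPM and 269.8, 264 and 309 CPM, and Eno1 188, 147 and 155 CPM and 169.9, 175 and 196 CPM. The median over members was 0.05 against -0.01 over all genes, and 4 members (11.4%) did not overlap against 19.7% of all genes. The rank correlation of the meKO diet fold change with exon length was -0.59 over the members and -0.33 over all genes. With length and GC offsets the median was -0.03 over the members and -0.01 over all genes, and 0 members passed (0.308% of all genes).

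**Figure D4:**
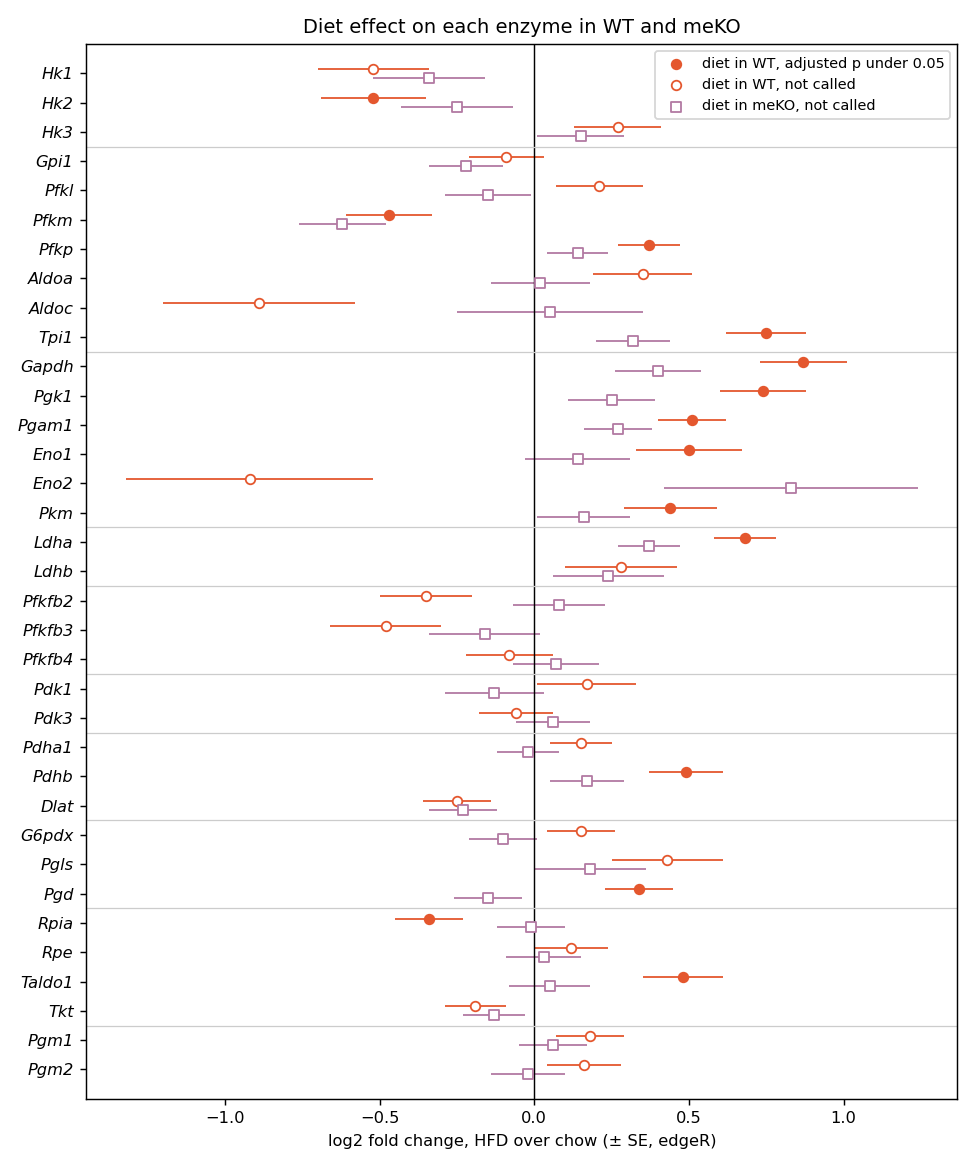
Log2 fold change of HFD over chow (± SE, edgeR) for each of the 35 genes in WT (circles) and in meKO (squares); filled symbols passed at an adjusted p under 0.05. Ldha, Gapdh and Tpi1 lie at 0.68, 0.87 and 0.75 in WT and at 0.37, 0.40 and 0.32 in meKO, and Pfkm lies at -0.47 and -0.62.

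Whether the diet response differed between genotypes was tested as an interaction, and 0 of 35 members passed in edgeR (0.0162% of all genes), with 7 at an unadjusted p under 0.05 and 0 in DESeq2. The smallest p-values were those of Pgd (-0.49 ± 0.16), Eno2 (1.74 ± 0.57) and Tpi1 (-0.43 ± 0.18), with edgeR adjusted p-values of 0.773, 0.773 and 0.791. The rank correlation of the interaction with exon length was 0.53 over the members and 0.48 over all genes. With length and GC offsets 0 members passed (0.0324% of all genes). A p-value that misses the threshold does not show that the genotypes responded alike.

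Averaged over both genotypes, 13 of 35 members passed (37.1%; 30.2% of all genes), 9 higher and 4 lower on HFD. Ldha (0.53 ± 0.07, edgeR adjusted p = 0.00164), Gapdh (0.64), Tpi1 (0.54), Pgk1 (0.50), Pgam1 (0.39), Pdhb (0.33), Pkm (0.30), Taldo1 (0.27) and Pfkp (0.26) rose. Pfkm (-0.54, edgeR adjusted p = 0.00467), Hk1 (-0.43), Hk2 (-0.39) and Dlat, the acetyltransferase subunit of pyruvate dehydrogenase (-0.24), fell. Hk1 measured 78.6, 56.9 and 70.2 CPM in meKO chow and 66.7, 42.3 and 53.4 CPM in meKO HFD, with overlap. With length and GC offsets 12 members passed (23.1% of all genes), 8 of them among the 13: Hk1 (-0.18, edgeR adjusted p = 0.0880), Hk2 (-0.17, 0.140), Dlat (-0.15, 0.0886), Pdhb (0.07, 0.376) and Taldo1 (0.05, 0.587) no longer passed, and Hk3 (0.37), Eno1 (0.39), Pfkl (0.21) and Rpia (-0.31) then did. Without WT chow libraries 1 and 2, 3 members passed, Ldha (0.51), Gapdh (0.54) and Pgam1 (0.43), while Pfkm (-0.53) had an edgeR adjusted p of 0.0517.

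For genotype on chow, the lowest p-values among the members fell on Pgd and Ldha, both higher in meKO, without passing the test. Genotype on chow and diet in WT share the WT chow libraries, so each is given by its own values. Of 35 members 0 passed in edgeR (0.081% of all genes) and 19 had an unadjusted p under 0.05; DESeq2 called 9, 7 higher and 2 lower, and 4.79% of all genes. Pgd measured 232, 214 and 202 CPM in WT chow and 309, 339.6 and 284 CPM in meKO chow (0.53 ± 0.11, edgeR adjusted p = 0.0794). Ldha (0.47 ± 0.10, 0.0794) and Tpi1 (0.53 ± 0.12, 0.0868) followed, and in all 3 genes each meKO chow library was above each WT chow library. In all, 17 members (48.6%, against 17.1% of all genes) did not overlap, 12 higher and 5 lower in meKO (8.87% and 8.28% of all genes). The rank correlation of the fold change with exon length was -0.58 over the members and -0.62 over all genes. With length and GC offsets Pgd, Ldha and Tpi1 had log2 fold changes of 0.47, 0.34 and 0.39, and 0 members passed (0.0324% of all genes). Without WT chow library 3, edgeR called 11 members, 8 higher and 3 lower, and 20.6% of all genes; the other 2 WT chow libraries are those with the length trend. Without those 2 instead, 0 passed and Pgd, Ldha and Tpi1 had log2 fold changes of 0.62, 0.43 and 0.47.

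For genotype on HFD, 0 of 35 members passed in edgeR (0.081% of all genes) and in DESeq2, with 1 at an unadjusted p under 0.05. The smallest p-values were those of Pfkm (-0.35 ± 0.14), Pfkfb4 (0.25 ± 0.14) and Aldoc (0.51 ± 0.31), each with an edgeR adjusted p of 0.999, and 5 members (14.3%) did not overlap against 10.3% of all genes. Averaged over diets, 0 of 35 passed in edgeR (0.17% of all genes), with a smallest edgeR adjusted p of 0.112 for Ldha (0.31 ± 0.07), and DESeq2 called 4 members and 2.97% of all genes.

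Eno2, the neuron-type enolase, showed the widest spread and was singled out after its values were seen. It measured 26.7, 31.2 and 26.5 CPM in WT chow and 10.4, 11.5 and 22.7 CPM on HFD in that genotype. The meKO libraries had 9.06, 11.7 and 10.3 CPM on chow and 9.53, 12.9 and 33.0 CPM on HFD. WT chow was thus above meKO chow in every library, while 1 library of each HFD group came near or above the WT chow range. The log2 fold change of meKO over WT on chow was -1.44 ± 0.41 (edgeR adjusted p = 0.119), and that of HFD in WT was -0.92 ± 0.40 (edgeR adjusted p = 0.113).

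**Figure D5:**
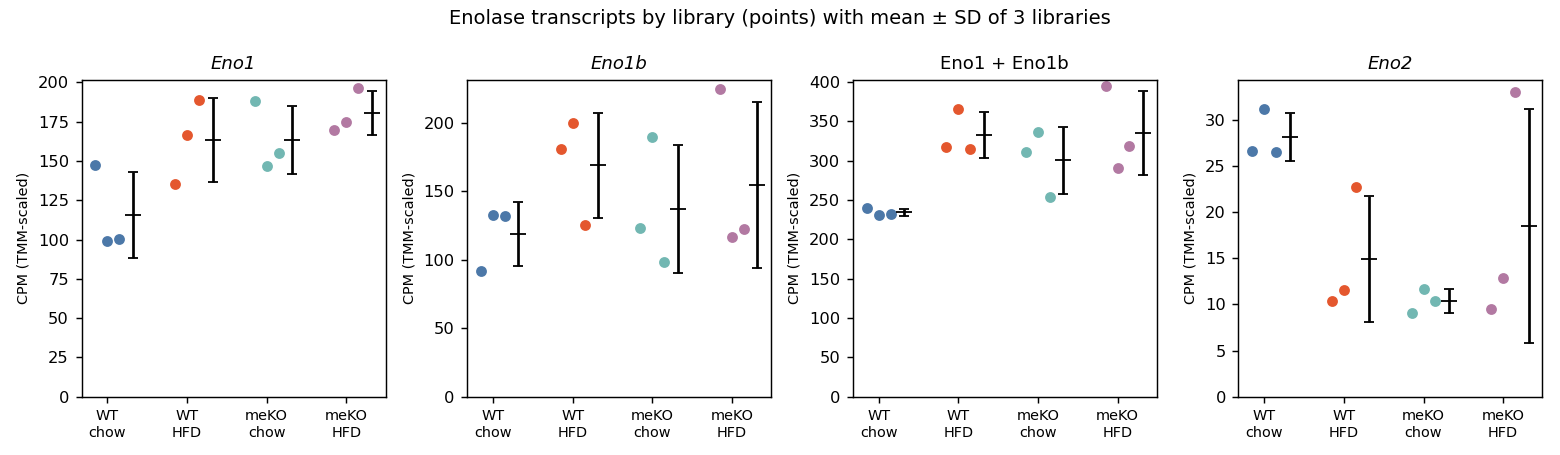
CPM of Eno1, its copy Eno1b, their sum and Eno2 in each of the 12 libraries (points), by group, with the mean ± SD of 3 libraries. The sum of Eno1 and Eno1b is 234 ± 4.27 CPM in WT chow and 332 ± 29.0 CPM in WT HFD, and Eno2 lies at 26.5 to 31.2 CPM in WT chow and at 9.06 to 11.7 CPM in meKO chow.

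Markers of other cells that a lavage can hold were summed per library, and their part in the enzyme results was not tested. Summed B cell markers (6 of 8 listed) were 40.8 to 64.6 CPM in WT chow, 18.1 to 36.6 in WT HFD, 29.4 to 61.7 in meKO chow and 18.6 to 38.5 in meKO HFD. Summed mesothelial and fibroblast markers (10 of 10) were 51.2 to 91.6, 94.9 to 139.6, 50.9 to 96.8 and 112 to 143 CPM. Summed neutrophil markers (7 of 12, with Ly6g, Mpo, Elane, Camp and Ngp not listed) were 156 to 200.3, 141 to 150.4, 165 to 192 and 172 to 188 CPM. In WT the sums of B cell, mesothelial and neutrophil markers did not overlap between diets; in meKO the neutrophil and B cell sums did. Summed dendritic cell markers (7 of 7) were 33.0 to 53.0 CPM in WT chow, 19.0 to 28.5 in WT HFD, 23.9 to 46.7 in meKO chow and 24.6 to 38.4 in meKO HFD, apart in WT only. Mast cell markers (8 of 8) summed to 215 to 256 CPM in WT chow and 203 to 235 in WT HFD. In meKO they summed to 58.4 to 359 CPM on chow and 202 to 295 on HFD. Over all libraries, eosinophil markers (4 of 7) summed to 21.6 to 66.0 CPM, and T and NK cell markers (9 of 10) to 14.5 to 32.1. Red blood cell markers (3 of 7) summed to 1.15 to 42.6 CPM, and dividing cell markers (7 of 7) to 26.6 to 62.8. Resident large peritoneal macrophage markers (8 of 8) summed to 109 to 387 CPM. The summed macrophage markers apart from Lyz2 exceeded each of these in every library.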

How the data were processed

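Poly-A or ribosomal selection, aligner, counter, annotation and strand setting are not given in the sources used here; Trizol extraction and a TruSeq library protocol are named per the labels. The authors deposited whole-number counts per gene (Entrez ID and symbol) and library, and the submitters' processing notes name mm10 and DESeq2 without a role. Genes without a symbol held 0.44% of counts and stayed in the fits. Counts were fitted with edgeR 4.0.16 (R 4.3.3; TMM scaling, filterByExpr, which kept all 12339 genes, robust quasi-likelihood, 4 group means over 12 libraries), with Benjamini-Hochberg adjustment over all genes and a threshold of 0.05. CPM are counts divided by TMM-scaled library size. Members and companion lists (transport, HIF and its targets, pyruvate entry, glycogen and related branches, further pentose phosphate and glycolysis genes, citric acid cycle, cell markers) were chosen with earlier results of these data known. The 12 members with the smallest p-values over the comparisons that called them are given for every library, as are Pgd, Eno1 and Eno2, and up to 3 called genes of each companion list are named; 1 such gene is not reported here. Replicates were numbered in accession order and pair nothing. Exon lengths are unions of GENCODE vM21 basic exons on GRCm38, matched for 11532 genes, in place of the RefSeq transcript lengths first planned; promoter sequences are RefSeq's. Alternatives used DESeq2 1.42.0, limma 3.58.1 (voom, with and without library quality weights), other scalings and filters, length and GC offsets and leaving out each library. Replicate libraries differed by more than counting noise (smallest chi-square per degree of freedom 16.9), so none was counted as a repeat. On simulated counts for diet in WT over 12339 genes, the test recovered 23% of 100 genes changed by 0.5 on the log2 scale and 87% of 100 changed by 1. There were 10 false calls among the unchanged genes. Apart from the changed genes, all simulated libraries shared the same mean profile, so none carried the length trend of WT chow libraries 1 and 2. The changed genes were not drawn from the least abundant genes. The simulation therefore does not measure false calls in the deposited libraries.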

Additional observations from a re-analysis of the deposited data

How the results depend on the processing

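No paired analysis was possible because the replicate numbers follow accession order and no number is shared between groups. Of 6335 values recomputed for members and companion genes, 5868 kept their side of the threshold, 341 lost a call and 126 gained one. Among values called in either fit, 0 reversed in sign. Values called in neither fit could change sign and were counted as kept. Hk1 did so for genotype on chow (-0.18, and 0.07 with length and GC offsets). The number of members called moved under these settings, given with the percent of all genes called. For diet in WT (14), library quality weights in limma-voom gave 23 (52%), leaving out 1 library 3 to 16, and leaving out WT chow libraries 1 and 2, an alternative chosen after seeing the data, 0 (0.122%). For diet averaged over genotypes (13) the last 2 gave 7 to 17 and 3 (1.64%). For genotype on chow (0), DESeq2 gave 9 (4.79%), quality weights 15 (32.8%), a fit of only the groups compared 1 (0.0406%), and leaving out 1 library 0 to 11 (2 to 2543 genes). For genotype averaged over diets (0) they gave 4 in DESeq2 (2.97%), 15 with quality weights (31.1%) and 0 to 8 with 1 library left out (8 to 1400 genes). For diet in meKO (0), DESeq2 and quality weights each gave 2 (1.84% and 3.23%), and leaving out 1 library 0 to 0. For the interaction (0), quality weights gave 2 (2.39%). For diet in WT, scaling by library totals called 857 of 2741 genes higher and length and GC offsets 872 of 1539, against 1172 of 2634; quality weights called 6411 genes, and leaving out 1 library 96 to 4921. The cause of each shift was not tested. Depth limits the least abundant genes: Aldoc had 40 to 138 counts per library and Pfkm 92 to 241.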
